A study of Mus musculus with 12 samples.

Results

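The step from epiblast-like cells (EpiLCs) to primordial germ cell-like cells (PGCLCs) was examined inside the bisphenol A (BPA) arm of a mouse in vitro differentiation series. The members are the 3 PGCLC and 3 EpiLC libraries whose titles name 100 nM BPA, 6 of the 12 libraries in the series, taken by their labels and scaled together from their raw counts. All 12 libraries came from C57BL/6 embryonic stem cells that carry 2 fluorescent reporters, Blimp1-mVenus and Stella-ECFP, and were held in 2i medium with LIF before EpiLC culture. EpiLCs were collected after 48 h, and those of the BPA arm had been given medium with 100 nM BPA from 24 h after seeding, for 24 h. PGCLCs were made from EpiLCs in U-bottom wells and collected at day 5, when cells positive for both reporters were sorted out of dissociated aggregates. The labels tie the BPA exposure to the EpiLC stage and do not say whether the PGCLC medium also held BPA, so the PGCLC libraries are called those of the BPA arm. The other 6 libraries, 3 of untreated EpiLCs and 3 of untreated PGCLCs, served only as a reference.

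EpiLCs model the pre-gastrulation epiblast, the tissue from which the mouse germ line is set aside. BMP signals from neighbouring tissue, acting on an epiblast made competent by Wnt, turn on Prdm1 (also called Blimp1), Prdm14 and Tfap2c, which repress the somatic programme, bring back a pluripotency network and start the erasure of DNA methylation. The same aggregates can also form extraembryonic endoderm and mesoderm, whose products include Afp and Ttr, carrier proteins made by visceral endoderm and yolk sac. BPA is a plastic monomer that can bind oestrogen receptors and some other nuclear receptors.

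Counts assigned to genes ranged from 11785338 to 22029195 in the 3 EpiLC libraries and from 30375633 to 34309195 in the 3 PGCLC libraries of the arm. No file lists a gene with fewer than 10 counts, so an unlisted gene lies at or below 0.409 to 0.764 CPM (counts scaled to the library's total) in the EpiLC libraries and 0.262 to 0.296 CPM in the PGCLC libraries. Reads in no annotated gene made up 5.60% to 6.61% of the EpiLC counts and 9.21% to 10.5% of the PGCLC counts. PGCLC library 3 stood apart from the other two PGCLC libraries. On the second principal component, which held 4.57% of the variance, it lay at -33.4 against 15.2 and 15.7. The median gene differed by 0.07 between PGCLC libraries 1 and 2 on the absolute log2 scale, and by 0.20 between library 3 and either of them. Libraries 1 and 2 still differed by more than counting noise, with a chi-square of 3.62 per degree of freedom over 15871 genes, and were kept as separate replicates. Nothing in the labels ties the replicates to separate cultures, and the p-values therefore rest on a spread between libraries that may be only technical. EpiLC and PGCLC libraries carry run names of different form in the labels, so any difference between preparations cannot be told apart from the stage. In these bulk libraries, fewer cells of a type and less RNA per cell cannot be told apart either.

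Most genes differed between the stages. Of the 16287 genes tested with edgeR's quasi-likelihood test, 11519 passed an adjusted p of 0.05, which is 70.7%. In PGCLCs 6365 were higher (39.1%) and 5154 were lower (31.6%). A called change of at least 2-fold was found for 3711 genes upward (22.8%) and 2600 downward (16.0%). The groups of 3 libraries did not overlap for 78.0% of the genes tested. The median log2 change over all genes was 0.11, and the median absolute change was 0.83. Of the called genes 2578 moved by under 1.5-fold, so a call alone says little about size. No EpiLC library of the arm listed 1027 of the genes called higher, and no PGCLC library of the arm listed 467 of those called lower. Without PGCLC library 3 the count of called genes was 12662. Because 70.7% of genes were called, a gene list is described below by its size of change and its balance of directions, beside the values for all genes.

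**Figure D1:**
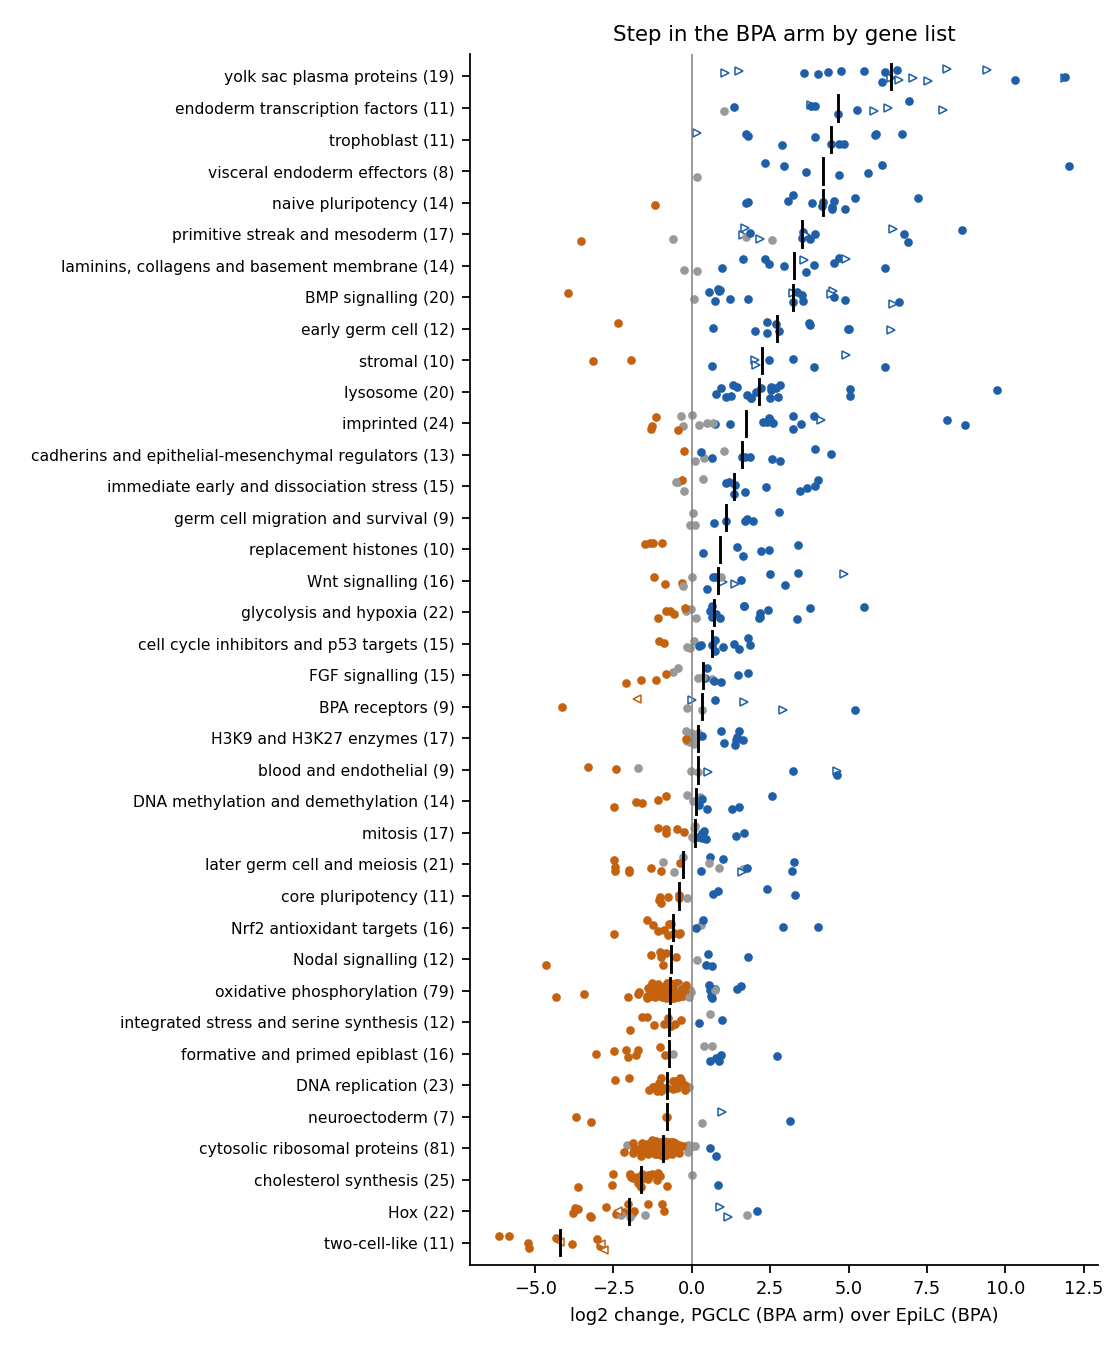
Fitted log2 change from EpiLC to PGCLC in the BPA arm for each tested member of 38 gene lists, with the number tested in brackets, blue for called higher, orange for called lower and grey for not called, and open triangles for genes unlisted in 1 stage, drawn at their lower bound. Black bars are list medians with such genes at their bound, and they run from the two-cell-like list at -4.22 to the yolk sac plasma protein list at 6.35.

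The reporter genes were read first, because the PGCLCs had been sorted on them. Prdm1 (chromosome 10, 44437177 to 44528501 on GRCm38) stood at 11.7, 12.02 and 10.7 CPM in the EpiLC libraries and 147, 144 and 169 CPM in the PGCLC libraries (log2 change 3.75 ± 0.09 (SE), adjusted p = 3.38e-07 by edgeR). Dppa3, which encodes Stella (chromosome 6, 122626410 to 122630272), stood at 17.9, 13.7 and 16.9 CPM and then 210.1, 199 and 251 CPM (log2 change 3.76 ± 0.13 (SE), adjusted p = 1.26e-06 by edgeR). Both genes were far higher in every sorted library, which checks the labels and, since the sort used their reporters, is not an independent result.

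Most early germ cell genes that the sort did not use were higher as well. Of the 10 members of the list other than Prdm1 and Dppa3, all of which passed the filter, 9 were called higher and 1 lower, with a median log2 change of 2.54 against 0.11 for all genes. Prdm14, a repressor of the somatic programme and of DNA methyltransferases, was unlisted in every EpiLC library and stood at 42.4, 45.3 and 49.3 CPM in the PGCLC libraries, at least 82.3-fold higher. Tfap2c, an AP-2 factor that acts with Prdm1, went from 5.71, 5.802 and 5.81 CPM to 191, 188 and 167 CPM (log2 change 4.98 ± 0.08 (SE), adjusted p = 1.89e-07 by edgeR). These are the 2 partners of Prdm1 in specification, and neither group overlapped the other. Sall4, a zinc finger factor of germ cells and stem cells, rose from 109, 113 and 122 to 641, 597 and 551 CPM (log2 2.38 ± 0.08). Nanos3, which protects migrating germ cells from death, was low throughout, at 0.566 and 1.13 CPM in EpiLC libraries 1 and 3 and unlisted in library 2, and 3.47, 3.32 and 3.19 CPM in PGCLCs (log2 change 2.401 ± 0.66 (SE), adjusted p = 0.0137 by edgeR), and lost its call without EpiLC library 1. Among surface proteins and effectors, Kit, the receptor for stem cell factor, rose from 38.3, 39.4 and 38.1 to 282, 255 and 256 CPM, and Alpl, the alkaline phosphatase used to stain germ cells, from 112, 112 and 118 to 478, 461 and 446 CPM. The Ifitm genes, which encode interferon-induced membrane proteins once named Fragilis, rose together: Ifitm1 from 4.86, 2.57 and 4.58 to 132, 123 and 145 CPM and Ifitm3 from 24.7, 21.1 and 26.4 to 141, 133 and 192 CPM. Dnd1, an RNA-binding survival factor, rose least (log2 0.68 ± 0.11). Lin28b, which blocks let-7 maturation, was the member called lower, at 96.2, 95.7 and 79.3 CPM in EpiLCs and 15.6, 13.9 and 23.2 CPM in PGCLCs (log2 change -2.36 ± 0.20 (SE), adjusted p = 4.48e-05 by edgeR).

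Markers of other cell types were summed in each library beside the germ cell markers. The 7 germ cell markers summed to 92.0 to 99.0 CPM in the EpiLC libraries and to 1017, 968 and 1088 CPM in the PGCLC libraries. That sum includes Prdm1 and Dppa3, on whose reporters the cells were sorted, and the other 5 summed to 66.3 to 71.4 CPM and then to 660.0, 625 and 668 CPM. The 6 EpiLC markers summed to 1472 to 1537 CPM in EpiLCs and to 391 to 455 CPM in PGCLCs. Most of the sum at either stage came from Dnmt3a and Dnmt3b, which both fell. Of the other markers, Pou3f1 and Sox3 fell, Otx2 rose and Fgf5 was not called. The 8 markers of visceral endoderm and yolk sac summed to 4.14 to 5.17 CPM in EpiLCs and to 9544, 10046 and 4878 CPM in PGCLCs. These endoderm markers were thus present at a high level in all 3 sorted libraries, lowest in library 3, where the germ cell sum was highest. Mesoderm markers summed to 2.15 to 3.56 CPM and then 84.4 to 114 CPM, and trophoblast markers to 3.98 to 5.22 CPM and then 33.9 to 40.5 CPM. Stromal markers summed to 5.22 to 5.63 CPM and then 71.9 to 111 CPM. Hand1 gave most of the mesoderm sum in PGCLCs, at 85.2, 75.1 and 93.1 CPM, while the mesoderm marker T was lower there. Col1a1 gave most of the stromal sum, at 75.7, 64.4 and 93.7 CPM, while the stromal marker Thy1 was lower. For blood and endothelium the sums were 20.9 to 23.2 CPM and 191 to 227 CPM, nearly all of it from Pecam1, a surface protein that pluripotent cells also carry. The sum of the 2 neuroectoderm markers went the other way, at 47.1 to 52.8 CPM in EpiLCs and 12.5 to 17.3 CPM in PGCLCs. That fall was due to Sox1 alone. Pax6, the other marker, stood at 8.82, 8.79 and 9.03 CPM in EpiLCs and 8.97, 9.51 and 14.8 CPM in PGCLCs. The part that such cells play in each result below was not tested.

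**Figure D2:**
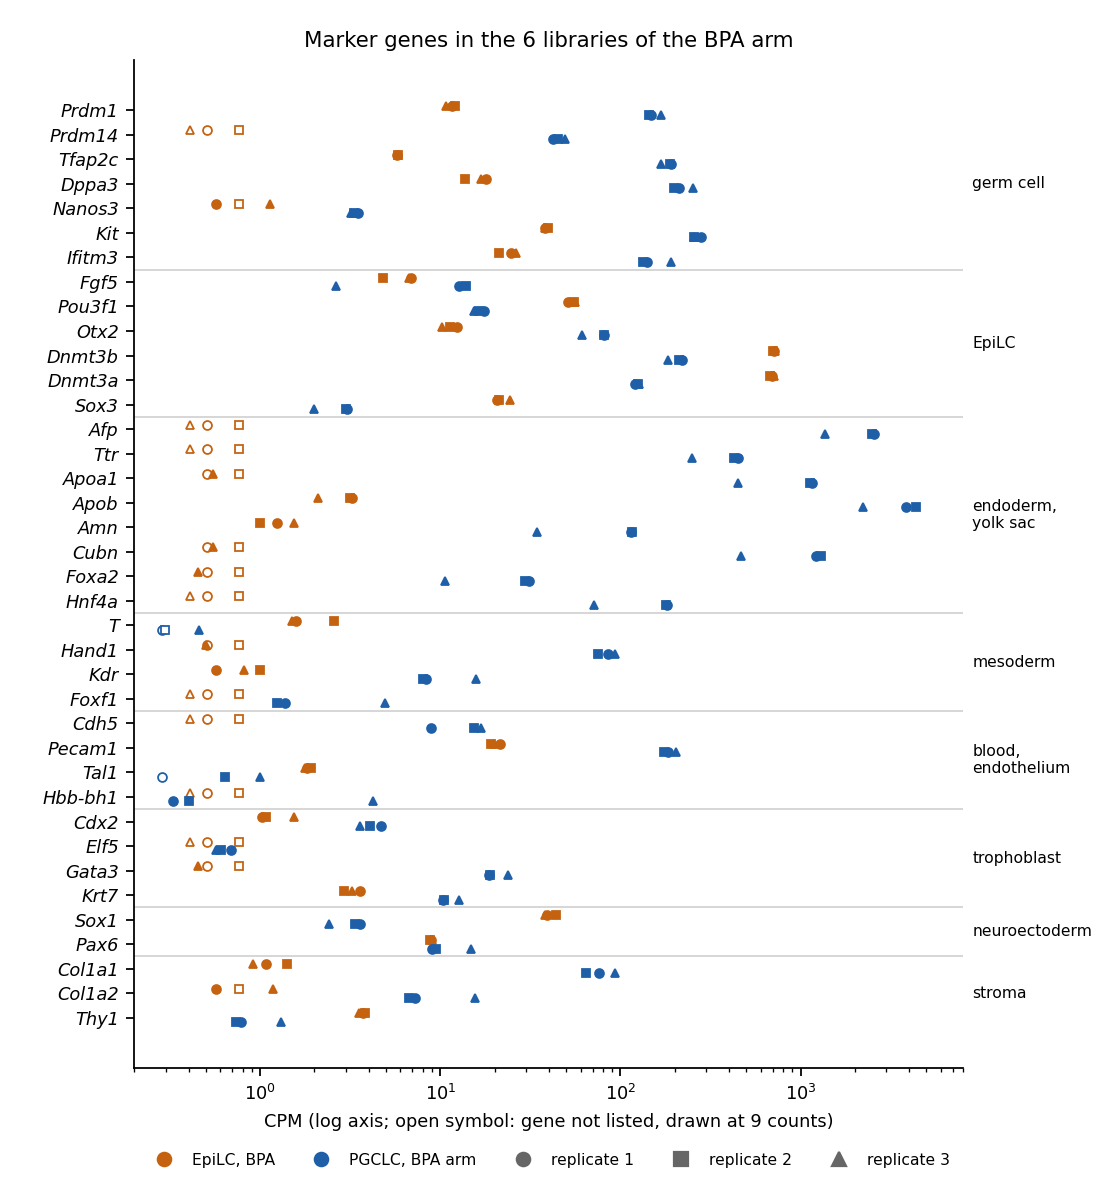
Level of 38 marker genes in each of the 6 libraries (CPM on a log axis), with EpiLC libraries in orange, PGCLC libraries in blue, a symbol for each replicate, and open symbols at 9 counts for unlisted genes. Germ cell markers and endoderm markers lie to the right in the PGCLC libraries, and PGCLC library 3 (triangle) is the lowest of the 3 for every endoderm marker, as for Afp at 1375 CPM against 2546 and 2503 CPM.

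The naive pluripotency network, which marks the pre-implantation epiblast and is known to return in germ cells and rose in nearly all members. Of its 14 members, 13 were called higher and 1 lower, with a median log2 change of 4.17. Nanog went from 19.7, 21.7 and 17.3 CPM in the EpiLC libraries to 434, 421 and 491 CPM in the PGCLC libraries (log2 change 4.53 ± 0.11 (SE), adjusted p = 3.38e-07 by edgeR). Esrrb, an orphan nuclear receptor that supports self-renewal, went from 10.9, 12.4 and 11.4 CPM to 433, 429.8 and 401 CPM (log2 change 5.19 ± 0.07 (SE), adjusted p = 1.48e-07 by edgeR). Klf2, a Kruppel-like factor, went from 14.5, 14.7 and 15.5 CPM to 340.3, 331 and 331 CPM, and its relative Klf5 from 7.75, 8.04 and 8.81 CPM to 194, 188 and 161 CPM. In each of these 4 genes the lowest PGCLC library was more than 10 times the highest EpiLC library. Klf4 rose with more spread, from 2.55, 2.901 and 3.13 CPM to 45.99, 54.6 and 21.6 CPM (log2 3.82 ± 0.38), with library 3 the low one. Tbx3 showed the largest fitted rise of the list, from 1.13, 0.995 and 1.18 CPM to 180.3, 188 and 128 CPM (log2 change 7.204 ± 0.22 (SE), adjusted p = 7.96e-07 by edgeR). Tfcp2l1, Nr0b1 and Tcl1 rose by 4.19, 3.21 and 4.88 on the log2 scale, and Tdh, the threonine dehydrogenase of mouse stem cells, from 13.6, 16.2 and 16.9 to 278, 275 and 282 CPM. Zfp42 and Fgf4 rose less (log2 1.73 ± 0.06 and log2 1.804 ± 0.05). Dppa5a, an RNA-binding protein of stem cells, was the exception and fell from 1043, 1112 and 1135 CPM to 513, 494 and 441 CPM (log2 change -1.18 ± 0.07 (SE), adjusted p = 8.13e-06 by edgeR).

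Core pluripotency genes did not share that pattern. Among 11 members, 4 were called higher and 6 lower, and the median was -0.40. Sox2 rose from 38.4, 37.1 and 36.1 CPM to 371, 358 and 375 CPM (log2 change 3.31 ± 0.06 (SE), adjusted p = 1.89e-07 by edgeR). Pou5f1, which encodes Oct4 and is needed by germ cells, fell from 474, 458 and 557 CPM to 285, 288 and 313 CPM (log2 change -0.75 ± 0.09 (SE), adjusted p = 0.0002 by edgeR). The partners Sox2 and Pou5f1 thus moved in opposite directions, and for each gene the groups did not overlap. Lin28a, Tdgf1 and L1td1 fell by about 1 on the log2 scale (-1.02, -0.9996 and -1.05), while Utf1 rose (0.84). Dppa2 and Dppa4, a pair of chromatin factors, fell slightly (-0.42 and -0.40), and Trim28 was not called (log2 -0.16 ± 0.06).

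Formative and primed epiblast genes, which EpiLCs are defined by, were split. Of 16 members, 8 were called lower and 5 higher, with a median of -0.73. Pou3f1 (Oct6) fell from 51.01, 55.04 and 56.1 CPM to 17.5, 16.3 and 15.5 CPM and Sox3 from 20.5, 21.2 and 24.5 CPM to 3.01, 2.98 and 1.99 CPM (log2 -1.72 ± 0.08 and log2 -3.06 ± 0.19). Otx2, a head and epiblast factor known to hold back germ cell entry, went the other way, from 12.4, 11.4 and 10.2 CPM in EpiLCs to 80.7, 80.8 and 60.8 CPM in PGCLCs (log2 change 2.72 ± 0.15 (SE), adjusted p = 5.75e-06 by edgeR). Otx2 is also expressed in visceral endoderm, and its PGCLC level was lowest in library 3, as were the endoderm markers; their part in this rise was not tested. Fgf5, the usual EpiLC marker, was not called, at 6.89999, 4.81 and 6.67 CPM in EpiLCs and 12.6, 13.9 and 2.65 CPM in PGCLCs (log2 change 0.65 ± 0.56 (SE), adjusted p = 0.328 by edgeR). Without PGCLC library 3 Fgf5 passed the threshold as higher, so that 1 library decides its call. Etv4 fell and its relative Etv5 rose (log2 -2.09 ± 0.15 and log2 0.92 ± 0.05), and the Wnt inhibitor Sfrp2 fell (log2 -2.05 ± 0.22). Cdh2 and Fgf8 were not called, with values of log2 0.38 ± 0.37 and log2 -0.60 ± 0.36.

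The de novo DNA methylation enzymes were lower and 2 Tet genes higher, while the wider list was mixed. The de novo methyltransferase Dnmt3a fell from 690.1, 678 and 716 CPM in EpiLCs to 121, 126 and 126 CPM in PGCLCs (log2 change -2.48 ± 0.05 (SE), adjusted p = 2.54e-07 by edgeR). Dnmt3b, the other de novo enzyme, fell from 711, 701 and 724 CPM to 220.4, 212 and 184 CPM (log2 change -1.79 ± 0.08 (SE), adjusted p = 2.00e-06 by edgeR). Neither pair of groups overlapped. Their cofactor Dnmt3l fell from 103, 101 and 114 to 27.8, 29.3 and 48.2 CPM (log2 -1.59 ± 0.21). Uhrf1, which brings the maintenance enzyme to replicating DNA, fell from 518, 479 and 532 to 218, 223 and 282 CPM (log2 -1.08 ± 0.11), while the maintenance enzyme itself, Dnmt1, was slightly higher (log2 change 0.22 ± 0.07 (SE), adjusted p = 0.0256 by edgeR). That small rise lost its call without any 1 of the 3 EpiLC libraries. On the removal side, Tet1 rose from 247, 226 and 194 CPM to 519, 514 and 607 CPM and Tet2 from 39.6, 35.8 and 31.6 CPM to 189, 217 and 218 CPM (log2 1.296 ± 0.11 and log2 2.55 ± 0.10). Tdg, a glycosylase that excises oxidised methylcytosine, fell (log2 -0.83 ± 0.07). Over the 14 genes 6 were called higher and 5 lower, a share near the 70.7% of all genes.

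Enzymes that place and remove H3K9 and H3K27 methylation, the marks of silent chromatin, had 8 of 17 genes called higher, 1 lower and 8 not called. The share called was 52.9%, below the 70.7% of all genes, and the median was 0.19 against 0.11 for all genes. The H3K9 demethylases Kdm3a, Kdm3b and Kdm4b rose (log2 1.62 ± 0.07, log2 1.44 ± 0.05 and log2 1.38 ± 0.15), as did the H3K27 demethylase Kdm6b (log2 1.399 ± 0.16). Among methyltransferases, Ezh1 went from 29.2, 29.6 and 28.3 CPM to 87.96, 88.2 and 70.3 CPM and the Polycomb subunit Suz12 from 177, 186 and 143 CPM to 343, 344 and 335 CPM (log2 1.4997 ± 0.10 and log2 1.02 ± 0.10). Ehmt2, which places H3K9me2, rose from 115, 112 and 121 CPM to 220.4, 219 and 221 CPM (log2 change 0.92 ± 0.05 (SE), adjusted p = 6.07e-06 by edgeR). Its partner Ehmt1 was not called (log2 0.07 ± 0.06), nor were Ezh2 (log2 -0.01 ± 0.06) and Setdb1 (log2 -0.00 ± 0.05). Replacement histones all passed the test, 6 higher and 4 lower. H2afy, which encodes macroH2A1 and is linked to silent chromatin, rose from 26.8, 27.3 and 25.8 CPM to 291, 289 and 261 CPM (log2 change 3.397 ± 0.07 (SE), adjusted p = 2.54e-07 by edgeR). Its relative H2afy2 fell from 73.02, 78.3 and 83.4 CPM to 26.3, 29.3 and 43.2 CPM (log2 change -1.25 ± 0.18 (SE), adjusted p = 0.000699 by edgeR). H2afz, H3f3a and H3f3b fell (log2 -1.48 ± 0.09, log2 -1.34 ± 0.08 and log2 -0.96 ± 0.05), and the linker histones H1f0 and H1fx rose (log2 1.64 ± 0.21 and log2 2.21 ± 0.12).

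Genes of visceral endoderm and yolk sac rose strongly, and the yolk sac plasma protein list had the highest median of the 38 lists. These tissues surround the epiblast, take up maternal proteins by endocytosis, and secrete the plasma proteins that the liver makes later. Of the 12 endoderm transcription factors, 11 passed the filter and 10 were called higher, with a median of 5.26 as fitted and 4.65 at the bounds, and with Foxa1 at log2 1.02 ± 0.50 not called and Cer1 below the filter. Hnf4a, a nuclear receptor that drives hepatic and visceral endoderm genes, was unlisted in every EpiLC library and stood at 181, 178 and 71.5 CPM in PGCLCs, at least 259-fold higher. Gata4 went from 2.998, 2.98 and 3.22 CPM to 153, 159 and 44.5 CPM (log2 change 5.26 ± 0.57 (SE), adjusted p = 0.000149 by edgeR), and Gata6 was unlisted in EpiLCs and stood at 42.1, 35.2 and 17.2 CPM in PGCLCs. For these 3 factors PGCLC library 3 had the lowest of the 3 PGCLC values and still lay above every EpiLC library. Sox17, a factor of endoderm that human germ cells also use, was unlisted in EpiLCs and low in PGCLCs, at 9.56, 11.2 and 2.36 CPM. Foxa2, a pioneer factor of endoderm, stood at 31.2, 29.4 and 10.6 CPM in PGCLCs. Eomes, shared by endoderm and streak, rose from 3.902, 3.23 and 3.49 to 67.9, 68.1 and 25.7 CPM (log2 3.92 ± 0.42).

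The endocytic machinery of that tissue rose with the factors. Cubn, the cubilin receptor, was unlisted in EpiLC libraries 1 and 2, was 0.545 CPM in library 3, and stood at 1214, 1291 and 466 CPM in PGCLCs (adjusted p = 1.21e-05 by edgeR). Amn, which anchors cubilin in the membrane, went from 1.24, 0.995 and 1.54 CPM to 114, 115 and 34.5 CPM (log2 change 6.07 ± 0.60 (SE), adjusted p = 0.000101 by edgeR). The third receptor subunit, Lrp2 (megalin), already stood at 158, 149.95 and 154 CPM in EpiLCs and reached 941, 1027 and 372 CPM (log2 change 2.34 ± 0.36 (SE), adjusted p = 0.00082 by edgeR), and the adaptor Dab2 went from 12.8, 12.1 and 10.9 to 721, 758 and 297 CPM. All 4 genes of this uptake complex were therefore higher, with the same low value in PGCLC library 3. Lamb1 was the member of the visceral endoderm list that was not called (log2 0.18 ± 0.12), and 7 of 8 were called higher. Without PGCLC library 3 all 8 were called higher, and so were all 11 endoderm factors tested.

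Plasma proteins of the yolk sac gave the largest values of all lists. Of 22 members 19 passed the filter, and all 19 were called higher, with a median log2 change of 8.28 as fitted and 6.35 with genes unlisted in EpiLCs taken at their bound. Afp, the fetal albumin-like carrier (chromosome 5, 90490737 to 90508907), was unlisted in all 3 EpiLC libraries and stood at 2546, 2503 and 1375 CPM in the PGCLC libraries, at least 3861-fold higher (adjusted p = 1.76e-05 by edgeR). Ttr, the thyroxine and retinol carrier, was likewise unlisted in EpiLCs and stood at 450.2, 428 and 251 CPM, at least 679-fold higher. Both of these sit below 1 CPM in EpiLCs and above 250 CPM in every PGCLC library. The lipoprotein genes followed. Apob, the structural protein of lipoprotein particles, went from 3.22, 3.15 and 2.09 CPM to 3852, 4367 and 2221 CPM (log2 change 10.30 ± 0.38 (SE), adjusted p = 1.43e-06 by edgeR), and in PGCLCs it took 0.343% of all assigned counts. Apoa1, of high-density lipoprotein, stood at 1156, 1135 and 449 CPM in PGCLCs and was listed in 1 EpiLC library, at 0.545 CPM. Apoe, which EpiLCs already expressed, went from 144, 127 and 167 CPM to 2832, 2884 and 1425 CPM. Mttp, which loads lipid onto Apob, rose from 10.4, 10.8 and 9.71 to 264, 247 and 113 CPM (log2 4.34 ± 0.35), and Apom reached 198, 182 and 86.3 CPM from unlisted. Thus the genes of both the particle proteins and the protein that loads lipid onto Apob were higher in all 3 PGCLC libraries. The fibrinogen chain Fga was unlisted in EpiLCs and stood at 52.3, 51.1 and 60.9 CPM in PGCLCs, at least 98.7-fold higher. Fgb, another chain, was likewise unlisted and stood at 113, 113 and 83.5 CPM, at least 186-fold higher, and the third chain Fgg reached 40.5, 40.8 and 27.2 CPM. Of the 19 genes tested, Fga and Serpind1 were those not lowest in PGCLC library 3. Alb, the adult liver albumin, did not pass the filter.

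Promoter sequence was read for this list because its members moved together. RefSeq promoters (GRCm38.p6) were matched for 20 of the 22 members, and the 250 bases before each start were searched on both strands for 14 short motifs, in 9 of the lists. The pairs shown here and below were chosen among those 126 after their counts had been seen, and a match is a description of letters, not a binding site. The half-site GTTAAT of HNF1, a liver and endoderm factor, lay in promoters of 8 of the 20 members (40.0%). Among those 8 are Alb, Apoc2 and Serpina1a, which did not pass the filter and so have no step here. Of the 27025 genes with a promoter, 7.49% held the half-site. A gene is counted here and below if any of its promoters held the motif. The promoters of 2 genes with a match follow, each from 250 bases before the start to the base before it, 5′ to 3′ on the gene's strand, with the half-site in capitals (ATTAAC is its reverse complement). They are Afp at chr5:90490464-90490713 on the plus strand and Fgb at chr3:83049864-83050113 on the minus strand.
Afp: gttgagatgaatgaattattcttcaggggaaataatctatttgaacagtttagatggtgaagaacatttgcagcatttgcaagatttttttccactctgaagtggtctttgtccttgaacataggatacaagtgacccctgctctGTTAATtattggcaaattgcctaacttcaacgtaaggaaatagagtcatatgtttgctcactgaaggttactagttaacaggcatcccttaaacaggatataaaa
Fgb: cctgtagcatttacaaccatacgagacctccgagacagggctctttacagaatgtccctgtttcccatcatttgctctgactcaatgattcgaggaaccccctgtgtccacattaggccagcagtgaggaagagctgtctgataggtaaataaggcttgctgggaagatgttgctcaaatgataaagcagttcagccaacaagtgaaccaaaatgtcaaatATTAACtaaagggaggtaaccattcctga
The match begins 105 bases before the start in Afp and 29 bases before it in Fgb. The start itself is the RefSeq one and was not measured here.

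Markers of mesoderm, trophoblast and stroma rose to lower levels. Of the 18 streak and mesoderm genes, 17 passed the filter, 13 were called higher and 1 lower, with a median of 3.92 as fitted and 3.51 at the bounds. Hand1, a factor of extraembryonic mesoderm and heart, was 85.2, 75.1 and 93.1 CPM in PGCLCs and at most 0.499 CPM in EpiLCs (log2 change 8.62 ± 0.44 (SE), adjusted p = 4.75e-06 by edgeR), and its relative Hand2 stood at 5.14, 5.79 and 9.995 CPM. The streak gene T (Brachyury) was the one called lower, from 1.58, 2.57 and 1.498 CPM to unlisted in PGCLC libraries 1 and 2 and 0.456 CPM in library 3. Its call (adjusted p = 0.0377 by edgeR) was lost without any 1 of 5 libraries, all except PGCLC library 3. Mixl1, another streak gene, was not called and split the PGCLC libraries, at 14.8, 15.3 and 0.598 CPM. Without library 3 it was called, at a log2 change of 3.16 with an adjusted p of 5.23e-06 by edgeR. Lhx1 was called with the same split, at 45.05, 42.5 and 3.56 CPM. For both genes library 3 was far below libraries 1 and 2. All 11 trophoblast genes were called higher, with a median of 4.71 as fitted and 4.45 at the bounds. The list included the simple keratins Krt8 and Krt18, which many epithelia share, with Krt8 going from 12.7, 12.3 and 15.2 CPM to 339, 329.6 and 218 CPM (log2 4.45 ± 0.21). The trophoblast factor Cdx2 stood at 4.68, 4.09 and 3.59 CPM and Elf5 at 0.687, 0.603 and 0.5695 CPM in PGCLCs. Other transcription factors of the list reached higher levels, with Gata2 at 27.04, 24.7 and 29.3 CPM, Gata3 at 18.7, 18.8 and 23.7 CPM and Tfap2a at 14.3, 12.7 and 26.5 CPM, each highest in library 3. Among 10 stromal genes tested, 8 were called higher and 2 lower. Col1a1, the main fibrillar collagen chain, went from 1.07, 1.41 and 0.908 CPM to 75.7, 64.4 and 93.7 CPM (log2 change 6.15 ± 0.22 (SE), adjusted p = 1.29e-06 by edgeR), highest in library 3, and Col3a1 stood at 9.23, 8.67 and 32.4 CPM. The feeder-cell marker Thy1 fell, from 3.73, 3.81 and 3.54 CPM to 0.786, 0.737 and 1.31 CPM (log2 change -1.95 ± 0.29 (SE), adjusted p = 0.000693 by edgeR).

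Blood and endothelial genes were mixed, and most Hox genes tested were lower. In the blood and endothelial list 9 of 11 genes passed the filter, 4 were called higher and 2 lower. Pecam1, the surface protein named above, rose from 21.4, 18.98 and 19.97 CPM to 184, 175 and 205 CPM (log2 change 3.22 ± 0.09 (SE), adjusted p = 4.29e-07 by edgeR). Runx1, a factor of blood formation, stood at 15.9, 15.002 and 7.404 CPM in PGCLCs and at most 0.912 CPM in EpiLCs (log2 4.64 ± 0.67). Cdh5, an endothelial cadherin that early germ cells also carry, was unlisted in EpiLCs and stood at 8.84, 15.3 and 16.8 CPM in PGCLCs. Embryonic globins were highest in PGCLC library 3. There Hba-x had 326 counts and Hbb-bh1 149, against none listed and 10 and 12 counts in libraries 1 and 2, and neither gene passed the filter. Gata1 reached only 0.884, 0.502 and 0.997 CPM. Sox1, an early neural factor that EpiLCs express, fell from 39.2, 44.02 and 38.03 CPM to 3.57, 3.35 and 2.42 CPM (log2 change -3.701 ± 0.16 (SE), adjusted p = 2.30e-06 by edgeR), and Ncan fell from 13.9, 11.9 and 13.5 to 0.982, 1.21 and 2.02 CPM. Of 39 Hox genes 22 passed the filter, 3 were called higher and 14 lower, with a median of -2.00. Hoxa5 fell from 7.24, 8.704 and 7.72 CPM to 0.393, 0.502 and 0.797 CPM (log2 change -3.78 ± 0.28 (SE), adjusted p = 2.18e-05 by edgeR), and Hoxb6 from 1.58, 0.912 and 1.86 CPM to unlisted in all 3 PGCLC libraries.

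BMP signalling is the inducing cue for germ cells, and its targets rose as a group. Of 21 genes 20 passed the filter, 18 were called higher and 1 lower, with a median of 3.30 as fitted and 3.24 with unlisted genes at their bound. The Id genes, direct BMP targets that block differentiation factors, gave the clearest change. Id1 went from 0.792, 0.995 and 0.953 CPM to 94.6, 90.9 and 81.5 CPM (log2 change 6.61 ± 0.13 (SE), adjusted p = 2.39e-07 by edgeR), and Id3 from 2.09, 2.07 and 2.04 CPM to 62.4, 61.7 and 59.2 CPM (log2 change 4.88 ± 0.09 (SE), adjusted p = 2.12e-07 by edgeR). Id2 rose from 9.39, 5.64 and 6.99 to 78.96, 74.4 and 75.3 CPM, and Id4 was unlisted in EpiLCs and stood at 9.395, 11.3 and 15.1 CPM. All 4 were higher in every PGCLC library, with little spread between libraries for Id1, Id2 and Id3. The feedback inhibitors Smad6 and Smad7 rose (log2 3.23 ± 0.22 and log2 1.78 ± 0.11), as did the targets Msx1 and Msx2, the second from unlisted to 43.8, 40.1 and 58.1 CPM. Receptors and transducers moved less: Bmpr1a, Bmpr2 and Smad1 rose by 0.55, 0.87 and 0.84 on the log2 scale, and Smad5 was not called (log2 0.07 ± 0.13). Among ligands, Bmp4 rose from 0.792, 0.829 and 0.908 CPM to 7.86, 8.64 and 12.5 CPM (log2 change 3.51 ± 0.26 (SE), adjusted p = 2.11e-05 by edgeR). Bmp2 was unlisted in EpiLCs and stood at 16.04, 18.6 and 3.45 CPM, while Bmp8b, a ligand of extraembryonic ectoderm, fell from 9.16, 10.3 and 9.17 CPM to 1.21 and 0.670 CPM in PGCLC libraries 1 and 2 and unlisted in library 3 (adjusted p = 0.00279 by edgeR).

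Nodal signalling, which maintains the epiblast, had more genes lower than higher. Lefty1, the secreted Nodal antagonist and target, fell from 840.2, 841 and 951 CPM to 36.9, 36.6 and 30.2 CPM (log2 change -4.67 ± 0.11 (SE), adjusted p = 2.91e-07 by edgeR). Lefty2 fell far less, from 296, 310.2 and 272 CPM to 154, 145 and 168 CPM (log2 change -0.91 ± 0.08 (SE), adjusted p = 3.92e-05 by edgeR). Nodal itself, its co-receptor Tdgf1 and the relative Gdf3 fell by 1.01, 1.00 and 0.83 on the log2 scale. In all, 7 of 12 were called lower and 4 higher, and the 4 are Smad3, Acvr2b and the feedback targets Smad7 and Skil (log2 1.78 ± 0.11 and log2 0.52 ± 0.12), with Smad3 losing its call without any 1 of the EpiLC libraries. Wnt effectors were mixed, 10 of 16 called higher and 3 lower. Dkk1, a secreted inhibitor, was unlisted in EpiLCs and stood at 15.6, 14.3 and 18.03 CPM in PGCLCs, and Tcf7l2 and Tcf7l1 rose (log2 2.49 ± 0.12 and log2 1.57 ± 0.13). Lef1 and Nkd1 fell (log2 -0.86 ± 0.10 and log2 -1.199 ± 0.14), and Axin2, a common Wnt readout, was not called (log2 -0.29 ± 0.26). In the FGF list 6 of 15 were called higher and 4 lower, near the balance of all genes. The feedback phosphatase Dusp6 and the inhibitor Spred1 fell (log2 -0.83 ± 0.07 and log2 -1.14 ± 0.18), whereas Fgfr2 rose (log2 1.47 ± 0.09).

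Cholesterol synthesis genes were lower almost without exception. Of 25 genes 23 were called lower and 1 higher, with a median of -1.64 against 0.11 for all genes. Lss, lanosterol synthase, which closes the sterol rings, fell from 373, 379.7 and 381 CPM to 66.4, 69.05 and 56.7 CPM (log2 change -2.56 ± 0.08 (SE), adjusted p = 8.09e-07 by edgeR). Idi1, an isomerase earlier in the pathway, fell from 116, 105 and 86.8 CPM to 18.4, 19.2 and 15.9 CPM (log2 change -2.53 ± 0.13 (SE), adjusted p = 5.26e-06 by edgeR). The groups did not overlap for either enzyme. Ebp, a sterol isomerase, was the member called higher (log2 0.84 ± 0.16), and Srebf2, the master regulator of the pathway, was not called (log2 0.02 ± 0.15).

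Promoters of 17 of these 25 genes were matched in RefSeq. The CCAAT box, bound by NF-Y, which works with the sterol regulator SREBP2, lay in 16 of the 17 (94.1%) and in 37.5% of all genes with a promoter. It is not particular to this list. In the other lists searched its share ran from 28.6% (early germ cell) to 75.0% (DNA replication). The sterol response element in the spelling TCACNCCAC lay in 1 of 17 (Hmgcs1) and in 1.22% of all genes with a promoter. The promoters of the 2 genes with the largest falls among those with a CCAAT match are shown, with CCAAT in capitals (ATTGG is its reverse complement). They are Lss at chr10:76531355-76531604 and Idi1 at chr13:8885356-8885605, both on the plus strand of GRCm38.p6.
Lss: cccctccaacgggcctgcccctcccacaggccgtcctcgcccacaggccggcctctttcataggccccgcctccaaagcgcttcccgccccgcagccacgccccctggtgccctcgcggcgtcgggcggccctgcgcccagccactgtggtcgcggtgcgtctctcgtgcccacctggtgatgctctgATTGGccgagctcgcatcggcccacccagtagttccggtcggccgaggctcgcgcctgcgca
Idi1: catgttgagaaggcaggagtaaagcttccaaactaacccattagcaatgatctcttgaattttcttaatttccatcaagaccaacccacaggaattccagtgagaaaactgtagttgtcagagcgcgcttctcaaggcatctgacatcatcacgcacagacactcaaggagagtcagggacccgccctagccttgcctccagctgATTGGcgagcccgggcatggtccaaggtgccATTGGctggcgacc
Lss holds 1 match, 62 bases before the start, and Idi1 holds 2, at 45 and 14 bases before it.

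Antioxidant targets of Nrf2 were also mostly lower, with 11 of 16 called lower and 4 higher and a median of -0.61. Txnrd1, thioredoxin reductase, fell from 1218, 1247 and 1219.7 CPM to 476, 472 and 428 CPM (log2 change -1.42 ± 0.06 (SE), adjusted p = 1.68e-06 by edgeR), and the cystine transporter Slc7a11 from 22.1, 21.6 and 16.2 CPM to 3.11, 2.88 and 4.699 CPM (log2 change -2.48 ± 0.23 (SE), adjusted p = 6.63e-05 by edgeR). Gstm1, a glutathione transferase, rose instead, from 30.3, 30.1 and 37.3 CPM to 271, 244 and 221 CPM (log2 change 2.91 ± 0.12 (SE), adjusted p = 1.90e-06 by edgeR). Osgin1 rose from 0.961, 0.912 and 1.32 to 24.2, 21.97 and 7.32 CPM (log2 4.03 ± 0.53).

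Glucose uptake and hypoxia genes rose, and several later enzymes of glycolysis fell. Of 22 genes 14 were called higher and 5 lower. Slc2a3, the GLUT3 glucose carrier, went from 205, 201 and 186 CPM to 3153, 3056 and 1863 CPM (log2 change 3.77 ± 0.21 (SE), adjusted p = 6.90e-06 by edgeR), and Pfkp, a phosphofructokinase, from 55.2, 50.1 and 45.98 CPM to 508, 549 and 486 CPM (log2 change 3.35 ± 0.09 (SE), adjusted p = 4.34e-07 by edgeR). Hk1 rose from 35.6, 31.6 and 35.3 CPM to 203, 188 and 168 CPM (log2 2.44 ± 0.09). Eno1, enolase, fell from 2521, 2375 and 2577 CPM to 1261, 1208 and 1069 CPM (log2 change -1.08 ± 0.07 (SE), adjusted p = 1.50e-05 by edgeR), and Pgk1 and Pgam1 fell (log2 -0.84 ± 0.13 and log2 -0.69 ± 0.09). Pkm, pyruvate kinase, was not called, at 3208, 3027 and 3324 CPM and 3338, 3151 and 2988 CPM (log2 -0.01 ± 0.06). Among the named enzymes the early steps thus rose, and the later steps fell or were not called. Hypoxia targets rose, such as Ndrg1 from 1.36, 1.49 and 1.04 CPM to 75.7, 67.6 and 26.7 CPM (log2 change 5.48 ± 0.50 (SE), adjusted p = 6.58e-05 by edgeR) and the mitophagy receptor Bnip3 from 22.3, 17.99 and 13.9 CPM to 92.3, 92.8 and 60.997 CPM (log2 2.19 ± 0.23). Vegfa rose from 49.5, 51.6 and 43.6 to 176, 187 and 95.4 CPM (log2 1.66 ± 0.25), and for Slc2a3, Ndrg1, Bnip3 and Vegfa alike PGCLC library 3 was the lowest of the 3.

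Genes for ribosomes and respiration were lower in nearly all members. Of 81 cytosolic ribosomal protein genes 73 were called lower and 2 higher, with a median of -0.92. Rpl39 fell from 573, 474 and 528 CPM to 121, 123 and 107 CPM (log2 change -2.16 ± 0.09 (SE), adjusted p = 2.30e-06 by edgeR), and the p53-linked copy Rps27l from 240.3, 250.5 and 236 CPM to 68.7, 64.2 and 65.1 CPM (log2 change -1.87 ± 0.06 (SE), adjusted p = 6.00e-07 by edgeR). Rpl21 and Rpl23a were the 2 called higher. Ribosomal protein genes commonly have processed copies in the genome, so counts of members called in either direction are uncertain. In oxidative phosphorylation 79 of 82 genes passed the filter, 65 were called lower and 7 higher, with a median of -0.70. Ndufs5, of complex I, fell from 30.4, 29.4 and 33.5 CPM to 7.23, 7.63 and 7.75 CPM (log2 change -2.04 ± 0.09 (SE), adjusted p = 2.74e-06 by edgeR). Atp5l, of the ATP synthase, fell from 56.7, 50.6 and 45.8 CPM to 2.52, 2.34 and 2.76 CPM (log2 change -4.32 ± 0.13 (SE), adjusted p = 5.76e-07 by edgeR). Short genes in general were lower in the PGCLC libraries. Protein-coding genes outside both lists had a median log2 change of -0.56 where the summed exons were under 1 kb (166 genes) and 0.29 where they were over 5 kb (5464 genes). Within each length bin that held at least 5 of its genes the ribosomal list kept a median between -0.93 and -0.82, and the oxidative phosphorylation list one between -0.82 and -0.56. How far the length trend enters these falls was not tested further. Genes of amino acid stress and serine synthesis fell as well, 9 of 12 lower and 2 higher. Mthfd2, a mitochondrial folate enzyme, went from 354, 347 and 319 CPM to 84.3, 84.8 and 90.6 CPM (log2 change -1.97 ± 0.06 (SE), adjusted p = 7.80e-07 by edgeR), and Atf4, the regulator of that response, from 538, 526 and 556 CPM to 243, 248 and 206 CPM (log2 change -1.22 ± 0.08 (SE), adjusted p = 1.22e-05 by edgeR). Asns, asparagine synthetase, rose (log2 0.96 ± 0.07).

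**Figure D3:**
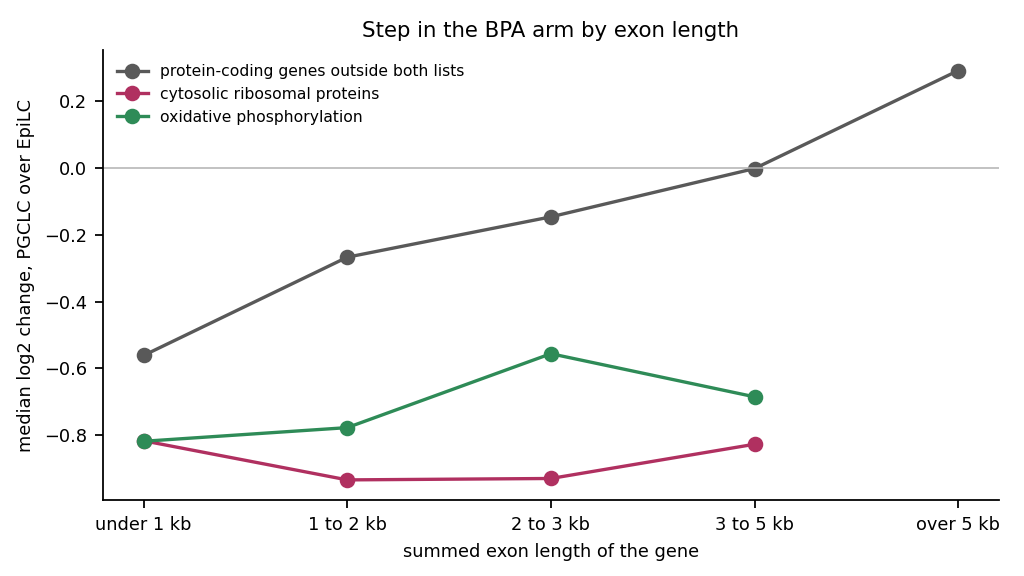
Median log2 change from EpiLC to PGCLC in the BPA arm by summed exon length, for protein-coding genes outside the ribosomal protein and oxidative phosphorylation lists (grey) and for those lists (red and green), in bins with at least 5 genes. The grey line climbs from -0.56 to 0.29, and both lists stay at or below -0.56 in every bin shown.

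DNA replication genes were lower in 22 of 23 cases, with a median of -0.80, and Mcm7 was not called (log2 -0.09 ± 0.06). Ccne1, cyclin E1, which drives entry into S phase, fell from 327, 338 and 349 CPM to 79.1, 81.4 and 91.5 CPM (log2 change -2.01 ± 0.07 (SE), adjusted p = 1.04e-06 by edgeR). Gins2, part of the replicative helicase, fell from 120.5, 112 and 128 CPM to 22.03, 20.96 and 22.2 CPM (log2 change -2.46 ± 0.07 (SE), adjusted p = 6.45e-07 by edgeR). Mcm5, another helicase subunit, fell from 626, 636 and 690.1 CPM to 318, 303 and 359.6 CPM (log2 change -0.99 ± 0.08 (SE), adjusted p = 3.07e-05 by edgeR). The smallest called falls were those of Pole and Cdc45 (-0.21 and -0.22), and both lost their call when some single libraries were left out, Pole without PGCLC library 1 or 2 and Cdc45 without EpiLC library 1 or 3 or PGCLC library 2. Of the 16 genes with a matched promoter, 4 held the E2F-like motif TTTNGCGC (25%, against 1.31% of all genes with a promoter). The promoter of Mcm5, at chr8:75109259-75109508 on the plus strand of GRCm38.p6, is shown because Mcm5 had the largest fall among those 4 genes. Its motif is in capitals, where 2 matches overlap at 153 and 149 bases before the start.
Mcm5: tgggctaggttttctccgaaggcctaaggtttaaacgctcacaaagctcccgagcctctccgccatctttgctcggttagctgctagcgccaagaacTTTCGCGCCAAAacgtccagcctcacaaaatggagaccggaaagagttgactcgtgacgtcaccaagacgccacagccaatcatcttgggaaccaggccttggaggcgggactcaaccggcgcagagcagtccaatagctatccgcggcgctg
Mitosis genes did not fall as a list, with 8 of 17 called higher and 5 lower and a median of 0.10 against 0.11 for all genes. The share called was 76.5%, near the 70.7% of all genes. Mki67, the Ki-67 proliferation antigen, rose from 304, 288 and 291 CPM to 747, 773 and 832 CPM (log2 change 1.41 ± 0.06 (SE), adjusted p = 1.88e-06 by edgeR), and Cenpf, a kinetochore protein, from 176, 157 and 152 CPM to 494, 497 and 539 CPM (log2 change 1.66 ± 0.07 (SE), adjusted p = 2.46e-06 by edgeR). Cdk1 and Ccnb1 fell (log2 -1.07 ± 0.06 and log2 -0.82 ± 0.06), and Plk1, Aurka and Top2a were not called. Among cell cycle inhibitors and p53 targets 10 of 15 were called higher and 2 lower. Cdkn1b, the p27 inhibitor, rose from 19.7, 20.6 and 15.9 CPM to 65.2, 62.2 and 68.1 CPM (log2 change 1.803 ± 0.11 (SE), adjusted p = 8.86e-06 by edgeR), and Cdkn2a fell from 31.2, 28.2 and 34.9 CPM to 16.2, 15.2 and 14.2 CPM (log2 change -1.05 ± 0.11 (SE), adjusted p = 0.000101 by edgeR). Cdkn1a, the p21 inhibitor, went from 62.5, 62.5 and 66.2 to 128, 119 and 73.9 CPM (log2 change 0.74 ± 0.19 (SE), adjusted p = 0.0105 by edgeR) and lost its call without EpiLC library 1 or 2.

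Lysosomal genes were higher without exception. All 20 passed the test, with a median of 2.13, and 18 of them rose at least 2-fold. Lgmn, the asparagine-specific protease legumain, went from 23.8, 21.7 and 22.8 CPM to 922, 892 and 462 CPM (log2 change 5.06 ± 0.29 (SE), adjusted p = 8.24e-06 by edgeR). Ctsc, cathepsin C, went from 7.01, 7.05 and 6.63 CPM to 276, 282 and 121 CPM (log2 change 5.04 ± 0.38 (SE), adjusted p = 2.60e-05 by edgeR), and Ctsl from 270.3, 249 and 259 CPM to 1865, 1843 and 758 CPM (log2 change 2.52 ± 0.33 (SE), adjusted p = 0.000393 by edgeR). Ctsh was at most 0.622 CPM in EpiLCs and stood at 444, 447 and 198 CPM in PGCLCs. In these 4 proteases PGCLC library 3 held less than the other two libraries, as it did for the endoderm markers, and their part in the rise was not tested. Members with less spread rose too, such as Grn, progranulin, from 45.5, 49.9 and 54.2 CPM to 189, 195 and 173 CPM (log2 change 1.89 ± 0.08 (SE), adjusted p = 2.32e-06 by edgeR). Tfeb, the main transcription factor of the lysosomal programme, went from 4.69, 4.23 and 4.77 CPM to 18.9, 20.8 and 10.99 CPM (log2 change 1.88 ± 0.26 (SE), adjusted p = 0.000479 by edgeR). The E-box CACGTG, the core of the motif that Tfeb binds, lay in promoters of 7 of 15 matched lysosomal genes (46.7%) and in 6.86% of all genes with a promoter. The promoter of Lgmn, at chr12:102439093-102439342 on the minus strand of GRCm38.p6, is shown with the E-box in capitals, 49 bases before the start.
Lgmn: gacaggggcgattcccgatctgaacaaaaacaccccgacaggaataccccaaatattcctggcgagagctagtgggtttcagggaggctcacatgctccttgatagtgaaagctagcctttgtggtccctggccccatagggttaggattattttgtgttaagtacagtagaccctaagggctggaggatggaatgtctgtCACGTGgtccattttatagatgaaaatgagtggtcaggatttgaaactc

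Matrix, adhesion and immediate early genes rose in most members. In the list of laminins, collagens and basement membrane 12 of 14 were called higher and none lower, with a median of 3.29 as fitted and 3.26 at the bounds. Lama5 (log2 -0.25 ± 0.12) and Lamb1 were not called. Col4a1, a chain of type IV collagen, went from 62.6, 60.9 and 63.04 CPM to 925, 1001 and 429 CPM (log2 change 3.66 ± 0.32 (SE), adjusted p = 5.34e-05 by edgeR). Fn1, fibronectin, rose from 299.8, 289 and 286 CPM to 1609, 1610.5 and 1562 CPM (log2 change 2.45 ± 0.05 (SE), adjusted p = 2.54e-07 by edgeR) with nearly equal PGCLC libraries. Among cadherins and epithelial-mesenchymal regulators 9 of 13 were called higher and 1 lower. Cdh3, P-cadherin, rose from 33.2, 29.6 and 30.9 CPM to 201, 189 and 163 CPM (log2 change 2.56 ± 0.10 (SE), adjusted p = 1.45e-06 by edgeR), and Cdh1, E-cadherin, was not called, at 737, 713 and 745 CPM and 849.6, 826 and 673 CPM. The immediate early gene Fos, which also responds to cell handling, rose from 4.35, 4.64 and 4.27 CPM to 67.1, 87.8 and 46.1 CPM (log2 change 3.93 ± 0.26 (SE), adjusted p = 1.52e-05 by edgeR), and its partner Jun from 6.16, 4.97 and 6.44 CPM to 107, 115 and 70.4 CPM (log2 4.04 ± 0.22). In that list 10 of 15 were called higher and 1 lower, while Egr1 (log2 -0.45 ± 0.18) and the heat shock genes Hspa1a and Hspa1b were not called. The labels describe enzymatic dissociation for both stages and sorting only for PGCLCs, so handling and stage cannot be told apart for these genes.

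Genes of the two-cell-like state, a rare state of embryonic stem cells, fell in every member. All 11 passed the filter and were called lower, with a median of -5.24 as fitted and -4.22 with unlisted genes at their bound. Zscan4d went from 49.8, 48.2 and 47.7 CPM to 0.655, 1.14 and 0.7404 CPM (log2 change -5.85 ± 0.17 (SE), adjusted p = 6.39e-07 by edgeR), and Zscan4c from 27.5, 25.4 and 29.2 CPM to unlisted in PGCLC library 1 and 1.31 and 0.854 CPM in libraries 2 and 3. Tcstv3 was listed in every EpiLC library, at 6.22, 4.64 and 4.99 CPM, and in no PGCLC library, and Zfp352 likewise, at 1.81, 2.24 and 1.86 CPM. The Zscan4 and Usp17l genes are near-identical copies, so how the authors' counting split reads among them is uncertain.

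Imprinted genes, which are expressed from 1 parental copy, were mostly higher, 14 of 24 called higher and 4 lower, with a median of 1.73 against 0.11 for all genes. The share called was 75.0%, near the 70.7% of all genes. H19, a noncoding RNA, and its neighbour Igf2, a fetal growth factor, rose together. H19 went from 9.61, 9.04 and 10.6 CPM to 4869, 4573 and 3013 CPM (log2 change 8.72 ± 0.25 (SE), adjusted p = 5.96e-07 by edgeR), and Igf2 from 3.68, 2.74 and 2.41 CPM to 847, 781 and 850.3 CPM (log2 change 8.14 ± 0.14 (SE), adjusted p = 1.89e-07 by edgeR). Peg10, a retrotransposon-derived gene of placenta, went from 381, 373 and 342 CPM to 4544, 4388 and 3394 CPM, and Peg3 from 154, 149 and 142 CPM to 1367, 1429.7 and 1398 CPM (log2 3.49 ± 0.12 and log2 3.24 ± 0.06). Meg3, a noncoding RNA of the Dlk1 domain, rose from 165, 171 and 166 CPM to 362, 512 and 281 CPM (log2 change 1.204 ± 0.20 (SE), adjusted p = 0.00129 by edgeR), and its neighbours Rian and Mirg were not called (log2 0.50 ± 0.20 and log2 0.23 ± 0.10). Grb10, Phlda2, Snrpn and Zrsr1 were called lower (log2 -1.27 ± 0.08, log2 -1.16 ± 0.11, log2 -1.32 ± 0.14 and log2 -0.44 ± 0.13), Zrsr1 not without EpiLC library 1. Airn, which overlaps Igf2r on the other strand, and Igf2r were both higher, and without a stated strand setting their reads cannot be told apart.

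Later germ cell and meiosis genes were mixed, with 7 of 21 called higher and 8 lower and a median of -0.27. Dazl, an RNA-binding licensing factor, rose from 5.54, 5.22 and 5.13 CPM to 54.4, 51.5 and 47.4 CPM (log2 change 3.27 ± 0.10 (SE), adjusted p = 6.00e-07 by edgeR), and the meiotic cohesin Smc1b from 5.599, 4.31 and 5.76 CPM to 48.1, 44.9 and 51.4 CPM (log2 3.18 ± 0.13). Ddx4, the vasa helicase of later germ cells, was not called, at 20.7, 22.8 and 21.2 CPM and 19.4, 19.6 and 14.5 CPM (log2 change -0.27 ± 0.13 (SE), adjusted p = 0.107 by edgeR). Stra8, the meiotic entry gene, fell from 79.6, 75.8 and 91.2 CPM to 16.5, 18.2 and 10.2 CPM (log2 change -2.46 ± 0.21 (SE), adjusted p = 4.84e-05 by edgeR), and the piRNA genes Mael and Tdrd1 fell (log2 -1.99 ± 0.18 and log2 -2.02 ± 0.18). Of 9 migration and survival genes tested 6 were called higher and none lower, so 66.7% were called against 70.7% of all genes. Among the 6 was Cxcr4, the receptor that guides migrating germ cells, from 0.622, 1.57 and 1.04 CPM to 4.09, 3.42 and 4.64 CPM (log2 change 1.94 ± 0.33 (SE), adjusted p = 0.00141 by edgeR). Rest rose from 223, 219 and 207 CPM to 449, 436 and 491 CPM (log2 1.08 ± 0.06), and Itgb1 and Cxcl12 were not called.

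Receptors proposed to bind BPA were at low levels apart from a few. Of 12 genes 9 passed the filter, 5 were called higher and 2 lower, a share near that of all genes. Esr1 and Gper1 did not pass the filter, and Esr2 was 1.07, 0.995 and 0.772 CPM in EpiLCs and unlisted in PGCLCs. The oestrogen-related receptor Esrrb, also a naive pluripotency gene, is described above, and Esrra was not called (log2 -0.14 ± 0.12). Ahr, a receptor for aromatic pollutants, rose from 12.5, 12.8 and 9.804 CPM to 18.9, 19.4 and 20.05 CPM (log2 change 0.74 ± 0.12 (SE), adjusted p = 0.00122 by edgeR).

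By size alone, among called protein-coding genes listed in all 6 libraries, the 10 largest rises were those of Apob, Igf2, Nrk, Tbx3, Clic6, Id1, Rbp4, Lcp1, Col1a1 and Slco2a1. Nrk, a kinase of placenta and yolk sac, went from 3.56, 2.901 and 2.59 CPM to 690.4, 705 and 339.7 CPM (log2 change 7.59 ± 0.39 (SE), adjusted p = 4.77e-06 by edgeR), and Lcp1, the actin bundler L-plastin, from 1.02, 0.829 and 0.999 CPM to 96.4, 95.6 and 58.4 CPM (log2 change 6.43 ± 0.29 (SE), adjusted p = 2.74e-06 by edgeR). Rbp4, the plasma retinol carrier, went from 3.68, 3.56 and 3.81 CPM to 414, 408 and 219.98 CPM (log2 change 6.55 ± 0.32 (SE), adjusted p = 3.79e-06 by edgeR). Among the 10 largest falls were those of Zscan4d, Jph4, Dok2, Col6a5, Btg3, Alox15, Lefty1, Crmp1 and Tpm3-rs7. Jph4, a junctophilin, went from 32.9, 31.4 and 37.2 CPM to 0.851, 0.502 and 0.683 CPM (log2 change -5.63 ± 0.18 (SE), adjusted p = 7.80e-07 by edgeR), and Dok2, a docking protein of kinase signalling, from 68.9, 79.1 and 84.5 CPM to 2.91, 2.34 and 2.51 CPM (log2 change -4.902 ± 0.13 (SE), adjusted p = 3.92e-07 by edgeR). Col6a5 lay at 1.41, 1.24 and 3.47 CPM in PGCLCs, and its log2 change of -4.71 became -5.35 without library 3. Among genes unlisted in 1 stage the largest bounds upward were those of Afp, Ttr, S100g, Apom, Hnf4a and Fgb, S100g being a calcium-binding protein at 243, 231 and 117 CPM in PGCLCs. Downward they were those of Zscan4-ps3, Mfsd2a, Rxrg, Thbs4, Pramef25 and Tll1. Mfsd2a, a transporter of lysophospholipids, was 14.8, 17.99 and 14.5 CPM in EpiLCs and unlisted in PGCLCs, at least 55.5-fold lower. As shares of all assigned counts, the most counted protein-coding gene in both stages was the elongation factor gene Eef1a1, at 1.34% in EpiLCs and 1.14% in PGCLCs. Npm1 and Ncl, of the nucleolus, were among the top 6 in EpiLCs, at 0.446% and 0.430%, whereas Peg10 and Apob were among the top 6 in PGCLCs.

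The 3 PGCLC libraries differed among themselves in a way that ran through several lists. Library 3 held the lowest of the 3 PGCLC values for 41.8% of all tested genes. In all 11 endoderm factors, all 8 visceral endoderm effectors, all 20 lysosomal genes and all 15 immediate early genes it was the lowest. The same held for 17 of 19 yolk sac plasma genes, 21 of 22 glycolysis and hypoxia genes, 71 of 81 ribosomal protein genes and 20 of 25 cholesterol genes. It was lowest in 4 of 12 early germ cell genes, in 2 of 10 stromal genes, in 1 of 23 replication genes and in none of 17 mitosis genes or 11 two-cell-like genes. These counts were looked up after library 3 had been seen to stand apart, and what set library 3 apart was not tested.

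The same step in untreated cells gave a reference for the BPA arm. The comparison asks whether a gene's change from EpiLC to PGCLC differs between the arms, and the 2 arms share no library. Across 12551 genes listed in all 12 libraries the 2 steps had a Pearson r of 0.91, a description across genes, which are not independent replicates. Of the 9182 such genes called in the BPA arm, 8744 (95.2%) had the same sign in untreated cells. Among the 3993 that were called at 2-fold or more, 77 had the opposite sign. A direct test of the difference over 17608 genes called 226 (1.28%), of which 173 were more positive in the BPA arm (0.983%) and 53 more negative (0.301%). That count depended on single libraries, being 935 without untreated EpiLC library 3, 726 without PGCLC library 3 of the BPA arm, and between 81 and 118 without any 1 of untreated EpiLC library 1, the 3 BPA EpiLC libraries or PGCLC libraries 1 and 2 of the BPA arm. Untreated EpiLC library 3 stood apart from libraries 1 and 2 of its group. Its counts differed from theirs with a chi-square of 84.0 and 111 per degree of freedom, against 6.45 between those 2, and its Pearson r with them was 0.961 and 0.948, against 0.998 between those 2. The run name of that library in the labels carries the number of replicate 2, and the labels do not settle whether it is a separate culture.

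Many called differences lay in genes that were higher in PGCLCs of both arms and more so in the BPA arm. Of the 186 called among genes listed in all 12 libraries, 90 had a positive step in both arms that was larger in the BPA arm, and 62 had steps of opposite sign. Of the yolk sac plasma genes 4 of 19 were called more positive and none more negative, whereas none of the 8 visceral endoderm effectors was called by edgeR (3 at an unadjusted p under 0.05, all more positive). DESeq2 called 1 of those effectors, limma voom none, and edgeR without PGCLC library 3 of the BPA arm 4. Rbp4 stood at 3.32, 3.38 and 5.64 CPM in untreated EpiLCs and 21.6, 12.6 and 14.6 CPM in untreated PGCLCs, beside 414, 408 and 219.98 CPM in PGCLCs of the BPA arm, a difference between steps of 4.54 ± 0.43 (SE) on the log2 scale, adjusted p = 0.00111 by edgeR. Gpx3, a secreted glutathione peroxidase, went from 15.7, 15.4 and 20.9 to 37.2, 33.5 and 29.1 CPM in untreated cells and from 13.6, 13.9 and 16.3 to 599, 563 and 363 CPM in the BPA arm (4.17 ± 0.28 (SE) on the log2 scale, adjusted p = 8.61e-05 by edgeR). Apoa2 stood at 3.23, 4.07 and 8.91 CPM in untreated EpiLCs and 1.05, 1.84 and 3.31 CPM in untreated PGCLCs, and rose from 4.02, 3.81 and 4.81 to 57.3, 56.5 and 40.1 CPM in the BPA arm (4.95 ± 0.58 (SE) on the log2 scale, adjusted p = 0.00232 by edgeR). In these 3 genes the PGCLC libraries of the 2 arms did not overlap, and untreated EpiLC library 3 stood above the other two of its group for Apoa2. Afp and Ttr were unlisted in the EpiLCs of both arms, so no difference of steps could be estimated. The same limit holds for any list member that no EpiLC library of either arm listed. A missing edgeR call for such a member says nothing about likeness between the arms. In untreated PGCLCs Afp stood at 46.4, 24.5 and 29.2 CPM and Ttr at 9.12, 7.403 and 10.3 CPM, below every PGCLC library of the BPA arm. Among 11 endoderm factors edgeR called none, 2 had an unadjusted p under 0.05 with a more positive step, DESeq2 called 1, limma voom called none, and edgeR without PGCLC library 3 called 3. Over all genes tested, 8.62% had an unadjusted p under 0.05 with a more positive step, and DESeq2 called 3.56% more positive.

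Lysosomal, imprinted and Nrf2 lists also held called differences. Among 20 lysosomal genes 7 were called more positive in the BPA arm and none more negative, with a median difference of 0.78 on the log2 scale. Without PGCLC library 3 of the BPA arm 12 were called. Lgmn stood at 210.3, 165 and 163 CPM in untreated PGCLCs and at 922, 892 and 462 CPM in those of the BPA arm (2.19 ± 0.31 (SE) on the log2 scale, adjusted p = 0.00606 by edgeR), and Ctsb at 175, 164 and 146 CPM and 691, 671 and 344 CPM (1.92 ± 0.29 (SE) on the log2 scale, adjusted p = 0.00923 by edgeR). The calls for Ctsc, Ctsh, Ctsl and Ctsa were lost in at least 9 of the alternatives, and that for Lgmn in none of those run. Of 24 imprinted genes 6 were called, all more positive: H19, Igf2, Meg3, Rian, Mirg and Sgce. Without untreated EpiLC library 3 the count was 10, and limma voom called 3. Meg3 went from 149.7, 182 and 100.3 to 57.9, 94.1 and 64.8 CPM in untreated cells, a lower level, and rose in the BPA arm (2.20 ± 0.36 (SE) on the log2 scale, adjusted p = 0.0123 by edgeR). Rian was also lower in untreated PGCLCs, from 207, 248 and 157 to 91.2, 94.96 and 81.9 CPM, against 263, 261 and 211 and 378, 416 and 243 CPM in the BPA arm (1.69 ± 0.29 (SE) on the log2 scale, adjusted p = 0.0147 by edgeR). Of 16 Nrf2 targets 4 were called more positive, Srxn1, Nqo1, Gstm1 and Osgin1. Srxn1, sulfiredoxin, went from 80.4, 79.3 and 91.2 to 26.2, 21.5 and 25.04 CPM in untreated cells and from 75.1, 73.9 and 86.5 to 111, 102 and 73.9 CPM in the BPA arm (2.07 ± 0.21 (SE) on the log2 scale, adjusted p = 0.00145 by edgeR).

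Germ cell and naive pluripotency genes gave no called difference with edgeR. None of the 12 early germ cell genes and none of the 14 naive genes was called by edgeR, with median differences of -0.35 and -0.37. For Prdm14, 1 of the 12, the difference could not be estimated (-0.64 ± 590 (SE) on the log2 scale), so it could not be called. At an unadjusted p under 0.05 there were 4 and 3, all more negative, DESeq2 called 2 and 1, also more negative, and limma voom called none. Over all genes tested, 5.05% had an unadjusted p under 0.05 with a more negative step, and DESeq2 called 1.53% more negative. Prdm1 stood at 181, 189.6 and 203 CPM in untreated PGCLCs, beside 147, 144 and 169 CPM in the BPA arm (-0.44 ± 0.14 (SE) on the log2 scale, adjusted p = 0.174 by edgeR). Without untreated EpiLC library 3, 1 germ cell gene and 2 naive genes were called more negative, and without PGCLC library 3 of the BPA arm 1 of each. Genes with a more negative step in the BPA arm included Lars2, a mitochondrial leucyl-tRNA synthetase, which went from 724, 519.9 and 679.7 to 2456, 1836 and 4233 CPM in untreated cells and from 530.1, 488 and 544 to 676, 498 and 534 CPM in the BPA arm (-2.02 ± 0.36 (SE) on the log2 scale, adjusted p = 0.0184 by edgeR). Efhc2, on the X chromosome, went from 5.96, 5.85 and 5.99 to 20.4, 20.2 and 16.9 CPM in untreated cells and was 6.73, 5.47 and 4.81 and then 3.24, 3.15 and 4.93 CPM in the BPA arm (-2.27 ± 0.29 (SE) on the log2 scale, adjusted p = 0.00342 by edgeR).

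**Figure D4:**
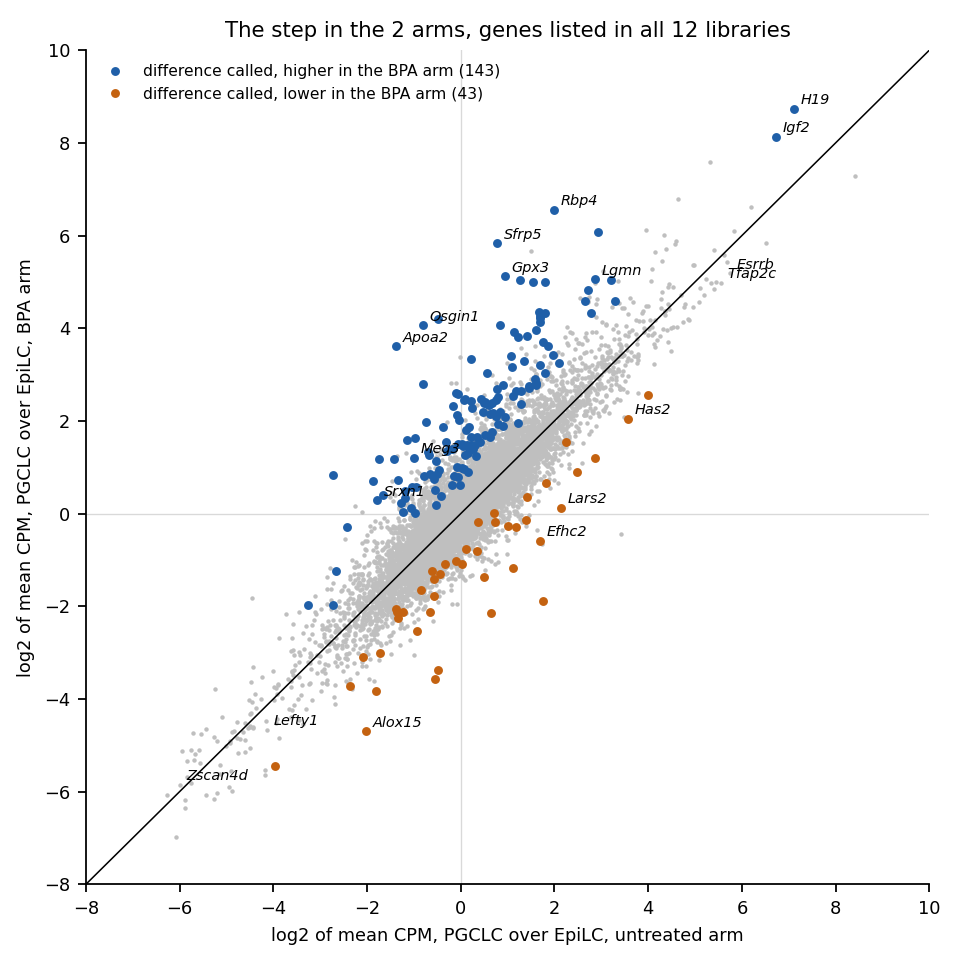
Log2 ratio of mean CPM, PGCLC over EpiLC, in untreated cells (horizontal axis) and in the BPA arm (vertical axis) for 12551 genes listed in all 12 libraries, with the line of equality, blue for the 143 called differences above it and orange for the 43 below. Most points follow the line, and blue points such as Rbp4 and Gpx3 lie well above it.

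Chromosomes 8 and X departed from the rest in this comparison. Over genes listed in all 12 libraries the median difference between the steps was 0.19 on chromosome 8 and -0.32 on the X, and between -0.08 and 0.05 on the other 18 chromosomes. On chromosome 8 the median step was -0.11 in the BPA arm and -0.34 in untreated cells. For the X chromosome it was -0.18 in the BPA arm and 0.08 in untreated cells. Chromosome 8 held 13 called differences, all more positive in the BPA arm, and the X held 15 more negative and 3 more positive. The share of counts from chromosome 8 was 6.04% to 6.21% in the 6 EpiLC libraries, 4.74% to 4.84% in untreated PGCLCs and 5.49% to 5.59% in PGCLCs of the BPA arm. These 3 ranges did not overlap, and chromosome 8 lay below its EpiLC share in all PGCLC libraries of both arms. The X share was 2.96% to 3.38% in EpiLCs, 3.21% to 3.37% in untreated PGCLCs and 3.01% to 3.10% in PGCLCs of the BPA arm. The part of these chromosome-wide shifts in single genes on them was not tested. Away from both chromosomes 195 called differences remained.

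**Figure D5:**
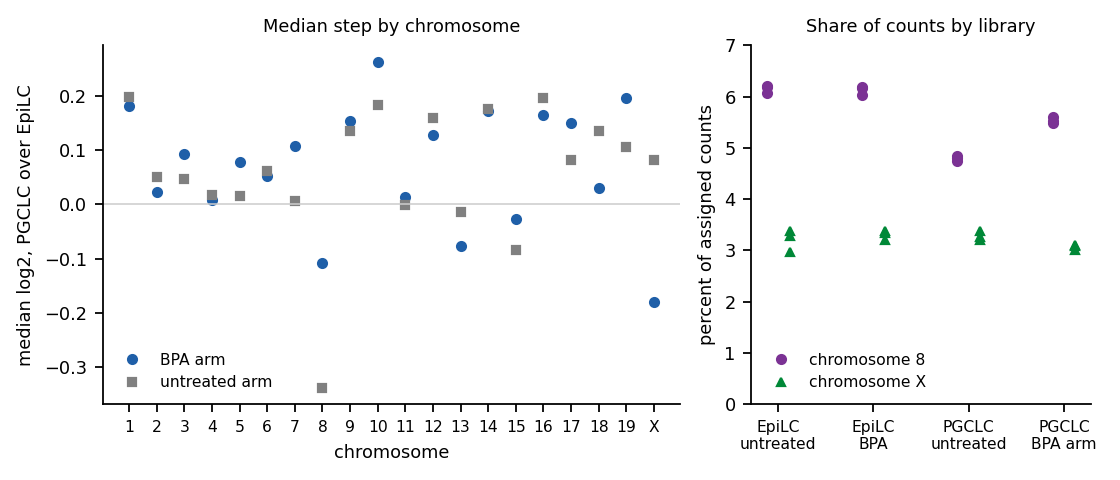
Left, median log2 ratio of PGCLC over EpiLC by chromosome in the BPA arm (blue circles) and in untreated cells (grey squares), over genes listed in all 12 libraries; right, percent of assigned counts from chromosomes 8 and X in each library. The 2 arms lie close together on most chromosomes and apart on chromosome 8, at -0.11 and -0.34, and on the X, at -0.18 and 0.08.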

How the data were processed

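Poly(A) RNA of 12 libraries was sequenced with a strand-specific kit, per the labels' protocols. The authors deposited 1 count table per library, holding whole-number read counts per gene that list no gene under 10 counts. Tools named in the submitters' processing notes are STAR, HTSeq, FastQC and bcl2fastq (2.19.1.403), with the build mm10. Other versions, the annotation and the strand setting are not given in the sources used here. Rows for reads in no single gene were left out of library sizes, and the row for reads aligned to several places appears in only 4 of the 6 files used for the step. It stood at 1448753 in EpiLC library 2 and at 168000, 163810 and 212070 in PGCLC libraries 1 to 3 of the BPA arm. The stages thus differ in this row where it is given. Its bearing on genes with near-identical copies, such as ribosomal protein and Zscan4 genes, was not tested.

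Counts of the 6 BPA-arm libraries were fitted with edgeR 4.0.16 in R 4.3.3 (filterByExpr, TMM factors of 0.970 to 1.02, robust quasi-likelihood test), with p-values adjusted by Benjamini-Hochberg over all genes tested and a threshold of 0.05. An unlisted gene was read as 0. A lower bound of fold took 9 counts per library for the group at 0, and fitted changes of such genes were not read as sizes. CPM values are scaled by library size and TMM. The difference between the arms is the interaction term of a fit of all 12 libraries, from which the untreated CPM come. The scripts were tested on simulated data. Alternatives were run with DESeq2 1.42.0, limma 3.58.1, other scaling and filters, unlisted genes as 9 counts, a replicate block, and each library left out in turn. Tables and figures were made with Python 3.11.15, pandas 2.3.3, numpy 2.4.6 and matplotlib 3.10.9.

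Same-numbered EpiLC and PGCLC libraries did not deviate together (r between -0.05 and -0.00 over 13188 genes), and the labels name no shared culture, so the numbers were not used as a block. The members, gene lists and motifs were chosen with earlier results of these data known. Genes are named as members of lists of up to 25 genes, as the 10 largest called changes each way among protein-coding genes listed in all 6 libraries with a mean of at least 10 CPM in the higher group, as the 6 largest bounds each way, as the 8 largest differences between arms each way, or as the 6 most counted genes of a group. Gene coordinates are on GRCm38, and promoters are RefSeq's (GRCm38.p6). Mitochondrially encoded and Y-linked genes, and the normalized matrices of the series, were not used here. A few genes that the naming rule selects are not reported here.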

Additional observations from a re-analysis of the deposited data

Results flagged for a closer look

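The step from EpiLC to PGCLC differed between the BPA arm and untreated cells, by edgeR's test of the difference itself, for 226 genes (1.28% of those tested). The values below are that difference on the log2 scale, positive where the step was more positive in the BPA arm, for the genes named by the rule that were listed well enough to fit, and adjusted p-values lay under 0.05 for each. Secreted and endodermal products had differences of 5.02 for Sfrp5, 4.95 for Apoa2, 4.68 for Vwce, 4.54 for Rbp4, 4.17 for Gpx3 and 2.54 for Mttp. Lysosomal genes had 2.19 for Lgmn, 1.92 for Ctsb, 1.84 for Ctsc, 1.74 for Ctsl, 1.20 for Ctsa and 0.91 for Lamp1. Imprinted genes had 2.20 for Meg3, 1.71 for Sgce, 1.69 for Rian, 1.61 for H19, 1.50 for Mirg and 1.43 for Igf2. Nrf2 targets had 4.85 for Osgin1, 2.07 for Srxn1, 1.43 for Nqo1 and 1.33 for Gstm1. The other positive differences were 3.74 for Car7, 3.62 for Stra6l, 2.60 for Atf3, 1.43 for H1f0 and 0.76 for Msmo1. Negative differences were -2.66 for Alox15, -2.27 for Efhc2, -2.02 for Lars2, -1.86 for Xlr3a, -1.59 for Fgf13, -1.57 for Dcaf12l1, -1.52 for Scml2, -1.51 for Has2 and -0.64 for Rrm2. Of the 226 called differences, chromosome 8 held 13 more positive ones and the X held 15 more negative ones. The part of the chromosome-wide shifts described above in the genes listed here was not tested. Apoa2, Car7, Ctsb, Dcaf12l1, Efhc2, Gpx3, Gstm1, Lgmn, Meg3, Nqo1, Rbp4, Srxn1 and Xlr3a kept their call in every alternative run.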

How the results depend on the processing

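Leaving out 1 library at a time gave 10650 to 12662 called genes for the step, with 5922 to 6804 higher and 4694 to 5858 lower. A test against a 2-fold change in place of no change called 4845 genes, 2970 higher and 1875 lower. Under the other alternatives the count stayed within 1.5 times the reported one. The median log2 change of all genes was 0.07 with RLE factors and 0.09 with library size alone. With no filter that median was 0.29. It was 0.03 with unlisted genes taken as 9 counts, and also with only genes listed in every library. Of 526 named genes 164 lost their call for the step in at least 1 alternative, 154 of them under the test against a 2-fold change and 46 under any other, with at most 22 under any 1 of those. A call was gained by 46, and none reversed.

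The difference between the arms depended more on the processing. DESeq2 called 897 genes (627 more positive, 270 more negative), and limma voom called 132 (96 more positive). With unlisted genes taken as 9 counts, 501 were called, 434 more positive and 67 more negative, against 173 and 53 in the reported test. Leaving out 1 library at a time gave 81 to 935 genes, 66 to 579 more positive and 15 to 362 more negative. Without untreated EpiLC library 3 the split was 573 to 362, and without PGCLC library 3 of the BPA arm it was 579 to 147. For these counts the cause was not tested. Of 39 named genes 26 lost their call for the difference in at least 1 alternative, among them Apob, Ctsl and Msmo1.

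With the replicate number as a block, the step had 10030 called genes (5536 higher, 4494 lower) and the difference between arms 151 (120 more positive, 31 more negative). No pairing by number was detected, since no EpiLC library correlated best with the PGCLC library of its own number. All these correlations were small, between -0.05 and 0.06, and cannot show that the libraries are unpaired.

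The EpiLC libraries hold 11785338 to 22029195 counts, so genes at or below 0.409 to 0.764 CPM could not be told from absence there, and the unlisted limit set every lower bound of fold.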
